A study of Mus musculus with 16 samples.

Results

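The response of fl/fl mice to the antagonist NOX_6_18 was compared between white adipose tissue (WAT) and liver. The quantity studied was the log2 fold change of NOX_6_18 against vehicle in WAT minus the same log2 fold change in liver, called here the difference of the responses. A positive difference marks a gene whose response was the higher one in WAT. The comparison rested on 8 of the 16 RNA-seq libraries of the series, 2 in each of 4 groups, chosen by their labels: fl/fl WAT on vehicle, fl/fl WAT on NOX_6_18, fl/fl liver on vehicle and fl/fl liver on NOX_6_18. All 8 came from C57BL/6 mice with a floxed Gpr132 gene (GPR132fl/fl), labelled with no Cre, that were fed a diet written as HFD. The labels call the material macrophages of WAT or of liver. The labels give no dose, duration, age or sex. The remaining 8 libraries came from mice that also carried Lyz2-cre, which drives Cre recombinase from a myeloid gene (labelled CKO). They entered the fit to help estimate the spread between replicates, and their vehicle libraries are given beside some results. The labels do not say whether replicates are separate animals, so each p-value speaks of the scatter among libraries, and that scatter may be technical.

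GPR132 is a G protein-coupled receptor of immune cells that has been linked to lysophospholipids, oxidised fatty acids and extracellular acidity, and it is expressed in macrophages. Macrophages of obese WAT take up lipid from dying adipocytes and are rich in lysosomal and lipid-handling proteins. Liver holds Kupffer cells, its resident macrophages, beside hepatocytes and sinusoidal endothelial cells. A drug given to a whole animal can reach a tissue's macrophages, its other cells and the hormones that bathe them all. Comparing the tissues therefore separates genes that moved together in both from genes that moved in 1 or in opposite directions.

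The fl/fl libraries held 48348395 to 58396991 counts in WAT and 45624957 to 59358674 in liver. Transcripts of the mitochondrial genome made up 2.31 to 3.4% of a WAT library and 43.53 to 44.88% of a liver library. Levels are CPM, counts scaled to library size and by TMM factors computed over both tissues. A count of 3, taken as the floor of detection, equalled 0.0505 to 0.0658 CPM before that scaling, and floors cover counting error only. The macrophage markers Adgre1 (the F4/80 antigen) and Cd68 lay at 421 to 428 and 424 to 473 CPM in vehicle WAT and at 167 to 176 and 102 CPM in vehicle liver. Other cells were also present. The collagen gene Col3a1 lay at 6450 and 6900 CPM in vehicle WAT. Alb, the hepatocyte gene for albumin, lay at 2780 and 2910 CPM in vehicle liver, and the sinusoidal endothelial gene Stab2 at 2260 and 2190 CPM. The adipocyte gene Adipoq lay at 3.98 and 5.91 CPM in vehicle WAT and had no count in the 4 fl/fl liver libraries. At least 1 count was found for 25039 and 25702 genes in the vehicle libraries of WAT against 30688 and 30991 in the NOX_6_18 libraries, and for 22051 to 23238 genes in the fl/fl liver libraries. The CKO libraries of WAT, treated or not, held 30393 to 31289 such genes, so the fl/fl vehicle libraries of WAT stood apart from the other 6 WAT libraries. In these bulk samples fewer cells of a type and less RNA per cell cannot be told apart.

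Gpr132 itself (chromosome 12, 112850873 to 112868228, minus strand, GRCm38) was higher in WAT than in liver. Its level was 49.3 and 48.3 CPM in the vehicle and 41.7 and 41.6 CPM in the NOX_6_18 libraries of WAT, a log2 fold change of -0.23 ± 0.21 (SE; adjusted p = 0.473). In liver it was 6.14 and 5.8 CPM on vehicle and 3.1 and 2.35 CPM on NOX_6_18, a log2 fold change of -1.12 ± 0.25 (adjusted p = 0.0228). The treated libraries lay below the vehicle libraries in both tissues, without overlap. Groups of 2 libraries often separate by scatter alone, so this adds nothing to the WAT response, which was not called. The difference of the responses was 0.89 ± 0.33 with a 95% interval from 0.18 to 1.61, and its adjusted p of 0.0945 missed the threshold of 0.05. It passed with DESeq2 (0.91, adjusted p = 0.0414), with only the fl/fl libraries in the fit (adjusted p = 0.0207) and over only the genes of at least 1 CPM in each tissue (adjusted p = 0.0448). The call in liver was lost without any 1 of the 4 fl/fl liver libraries (adjusted p = 0.0537 to 0.161) and with limma-voom (adjusted p = 0.526). Of the proton-sensing receptors and their G proteins, 9 genes tested, 4 had a called difference and none of them was a receptor. Gnai2, Gna12, Gna13 and Gnas encode G protein alpha subunits. They fell in WAT by 0.47, 0.59, 0.30 and 0.49 on the log2 scale and had log2 fold changes of -0.11, 0.07, 0.17 and 0.05 in liver. Removing the trend over GC content and length ended the calls of Gnai2 and Gnas (adjusted p = 0.28 and 0.518). With library totals alone the difference of Gnai2 was -0.21 and also missed the threshold (adjusted p = 0.132).

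Across the 26751 genes tested, the difference of the responses was called for 3936 genes (14.7%) with edgeR's quasi-likelihood test at an adjusted p under 0.05. The WAT response was the higher one for 2011 of them (7.52% of the genes tested) and the lower one for 1925 (7.2%). With library totals as the only scaling the split was 2499 against 975. Between NOX_6_18 and vehicle, 8403 genes were called in WAT (31.4%), of which 5489 rose (20.5%) and 2914 fell (10.9%). In liver 1355 genes were called (5.07%), 832 upwards (3.11%) and 523 downwards (1.96%). Of the 3936 genes, 2831 were called in WAT and not in liver, 408 in liver and not in WAT, 306 in both with opposite signs, 107 in both with the same sign and 284 in neither. Both tissues were measured, at a mean of at least 1 CPM over the fl/fl libraries of a tissue, for 3102 of them.

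A gene was counted as alike when it was called in both tissues in the same direction and the 95% interval of the difference lay within 2-fold, that is between -1 and 1 on the log2 scale. This held for 266 genes (0.994%), 113 of which rose (0.422%) and 153 fell (0.572%), and 39 of the 266 had a difference that was called but small. A gene was counted as opposite when it was called in both tissues with opposite signs and its difference was called. This held for 306 genes (1.14%), with 117 higher in WAT and lower in liver (0.437%) and 189 lower in WAT and higher in liver (0.707%). Over the 13856 genes measured in both tissues, the log2 fold changes of WAT and liver had a Pearson's r of 0.034 and a Spearman's rho of -0.012 across genes. Genes are not independent replicates and share the libraries, so these values only describe.

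**Figure D1:**
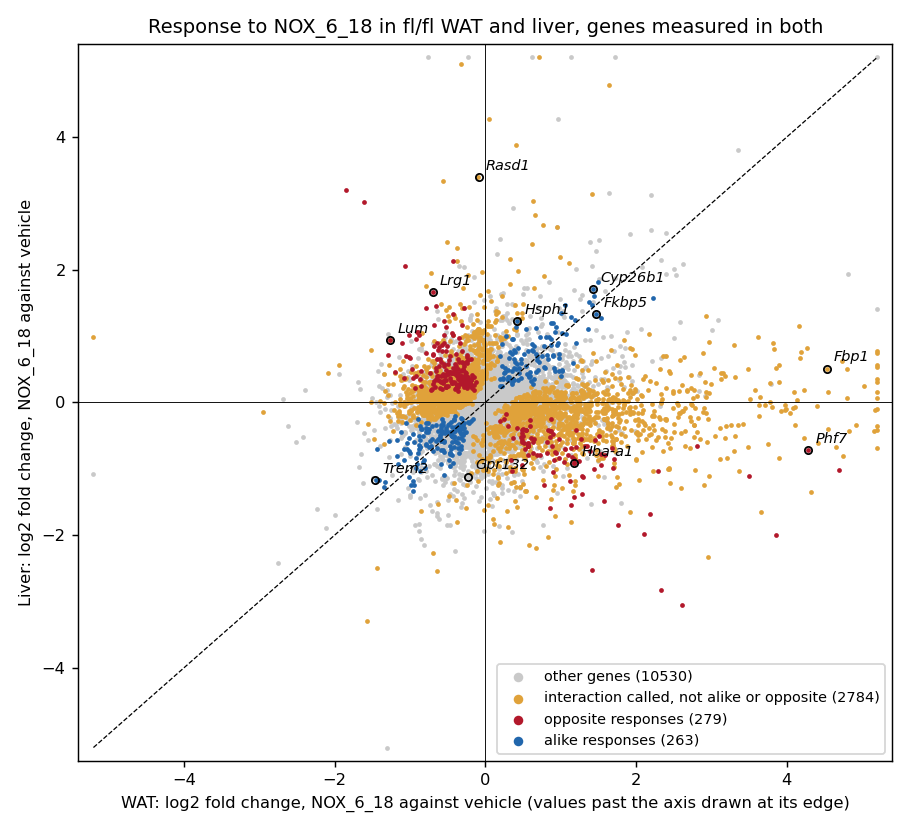
Log2 fold change of NOX_6_18 against vehicle in fl/fl WAT (horizontal axis) and fl/fl liver (vertical axis) for the 13856 genes measured in both; each point is 1 gene, the dashed line marks equal responses, and values past the axis are drawn at its edge. The 263 alike genes lie near the line, the 279 opposite genes in the upper left and lower right, and most of the 2784 other genes with a called difference spread along the horizontal axis.

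The libraries from vehicle-treated CKO mice, which received no antagonist, lay with the NOX_6_18 libraries rather than with the fl/fl vehicle libraries at most of these genes. Their mean was nearer to the fl/fl NOX_6_18 mean than to the fl/fl vehicle mean at 8103 of the 8403 genes called in WAT (96.4%) and at 1244 of the 1355 called in liver (91.8%). The same held in both tissues for 250 of the 266 alike and 265 of the 306 opposite genes. All these genes were chosen for a difference between the fl/fl vehicle and fl/fl NOX_6_18 libraries, and the share over all genes tested is not given. Because 1 group of 2 vehicle libraries in each tissue sets every response below, an effect of the antagonist and anything else that set those 4 libraries apart cannot be told apart.

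Genes that rose alike in both tissues included Fkbp5, Klf15, Zbtb16 and Pck1. The first and the third belong to a list of 14 glucocorticoid-induced genes and metallothioneins, of which only these 2 were alike and 9 had a called lower response in WAT. Fkbp5, a chaperone of the glucocorticoid receptor and a classical target of it, was at 60.2 and 63.4 CPM on vehicle and at 168 and 174 CPM on NOX_6_18 in WAT. In liver it was at 47.9 and 43.8 CPM on vehicle and at 117 and 113 CPM on NOX_6_18. The log2 fold changes were 1.47 ± 0.07 and 1.33 ± 0.07, and the difference of 0.14 had a 95% interval from -0.07 to 0.35. Klf15, a transcription factor of the fasting response, went from 6.11 and 5.67 to 12.6 and 13.2 CPM in WAT and from 13.7 and 12.7 to 34.2 and 30.3 CPM in liver. Its difference was -0.16 (95% interval from -0.46 to 0.15). Zbtb16, which encodes the zinc finger protein PLZF, rose by 1.36 ± 0.17 in WAT and 1.11 ± 0.19 in liver, although limma-voom lost the liver call (adjusted p = 0.115). The treated libraries lay above the vehicle libraries at Fkbp5, Klf15 and Zbtb16 in both tissues, which adds nothing to the calls by which these genes were chosen.

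Pck1, the rate-limiting enzyme of gluconeogenesis, lay at very different levels in the tissues but changed by a similar factor. It was at 2.6 and 2.85 CPM on vehicle and 7.73 and 7.7 CPM on NOX_6_18 in WAT, against 83 and 80.1 CPM and 292 and 283 CPM in liver. Its responses were 1.5 ± 0.08 and 1.82 ± 0.07, and their difference of -0.32 had a 95% interval from -0.55 to -0.08. That difference missed the threshold in the main test (adjusted p = 0.0731) and passed with DESeq2 (adjusted p = 0.0392). Cyp26b1, which degrades retinoic acid, rose from 8.42 and 8.69 to 21.4 and 24.6 CPM in WAT and from 187 and 173 to 608 and 566 CPM in liver. Arg1, the arginase of the urea cycle and of alternatively activated macrophages, rose from 3.71 and 4.9 to 7.91 and 7.89 CPM in WAT and from 59.9 and 51 to 129 and 127 CPM in liver. Its WAT call was lost when the trend over GC content and length was removed (adjusted p = 0.078). Of 17 genes of gluconeogenesis and amino acid catabolism, 8 rose in WAT and 9 in liver, none fell in either, and 3 were alike. Tat, the tyrosine aminotransferase, was among those that differed, with a rise of 0.99 ± 0.14 in WAT, from 0.832 and 0.872 to 1.54 and 1.84 CPM, and of 2.19 ± 0.11 in liver, from 56.4 and 55 to 239 and 271 CPM.

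The genes named among those that fell alike included several of immune cells. Trem2, a lipid-sensing receptor of macrophages, was at 124 and 115 CPM on vehicle and 41.4 and 45.8 CPM on NOX_6_18 in WAT, and at 15.6 and 18.5 against 8.19 and 6.91 CPM in liver. The responses of -1.46 ± 0.12 and -1.17 ± 0.13 differed by -0.29 (95% interval from -0.67 to 0.09). Rgs1, which shortens signalling of chemokine receptors, was at 305 and 282 against 113 and 108 CPM in WAT and at 30 and 29.5 against 12.7 and 13.9 CPM in liver. Ms4a7, a membrane protein of macrophages, fell by 0.92 and 0.99, and Tlr1, a toll-like receptor subunit, by 0.95 and 1.25 in WAT and liver. Cd22, an inhibitory receptor of B cells, fell by 1.16 and 0.93. The liver call of Cd22 was lost without vehicle replicate 2 or either NOX_6_18 replicate of liver (adjusted p = 0.0791 to 0.098). Pdgfb, a growth factor for pericytes, fell by 0.96 and 1.18 and Nuak1, a kinase related to AMPK, by 0.96 and 1.33. The treated libraries lay below the vehicle libraries at these genes, which were chosen for being called lower in both tissues.

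Of 10 genes of MHC class II antigen presentation tested, 5 fell in WAT and 9 in liver, none rose, and 5 were alike. Their median log2 fold changes in WAT and liver were -0.31 and -0.67, against 0.13 and 0.00 over all genes tested. Over the genes measured in both tissues, as these 10 were, the medians were -0.1 and 0.0. Without WAT vehicle replicate 1 or WAT NOX_6_18 replicate 1, or with library totals alone, only 3 of the 10 passed in WAT. In liver 6 or 7 passed without any 1 fl/fl liver library, and 7 with limma-voom or with only the fl/fl libraries in the fit. The difference was called for 3 of the 10, all with the higher response in WAT, and for 0 to 2 when 1 fl/fl library was left out. After removal of the trend over GC content and length, 3 had a called higher and 2 a called lower response in WAT. H2-Ab1, which encodes a class II beta chain, went from 1350 and 1200 to 978 and 1060 CPM in WAT and from 299 and 316 to 188 and 189 CPM in liver. Its difference of 0.38 ± 0.11 passed the test (adjusted p = 0.0379) within the 2-fold bound. Ciita, the master activator of class II genes, had log2 fold changes of -0.24 ± 0.21 in WAT and -1.25 ± 0.22 in liver, a difference of 1.01 ± 0.30 (adjusted p = 0.0441). H2-DMb2, a chain of the peptide-loading factor, had -0.05 ± 0.16 and -0.86 ± 0.17, a difference of 0.81 ± 0.23 (adjusted p = 0.0362). The called differences of H2-Ab1, Ciita and H2-DMb2 were each lost in 8 to 11 of their 19 alternative settings.

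**Figure D2:**
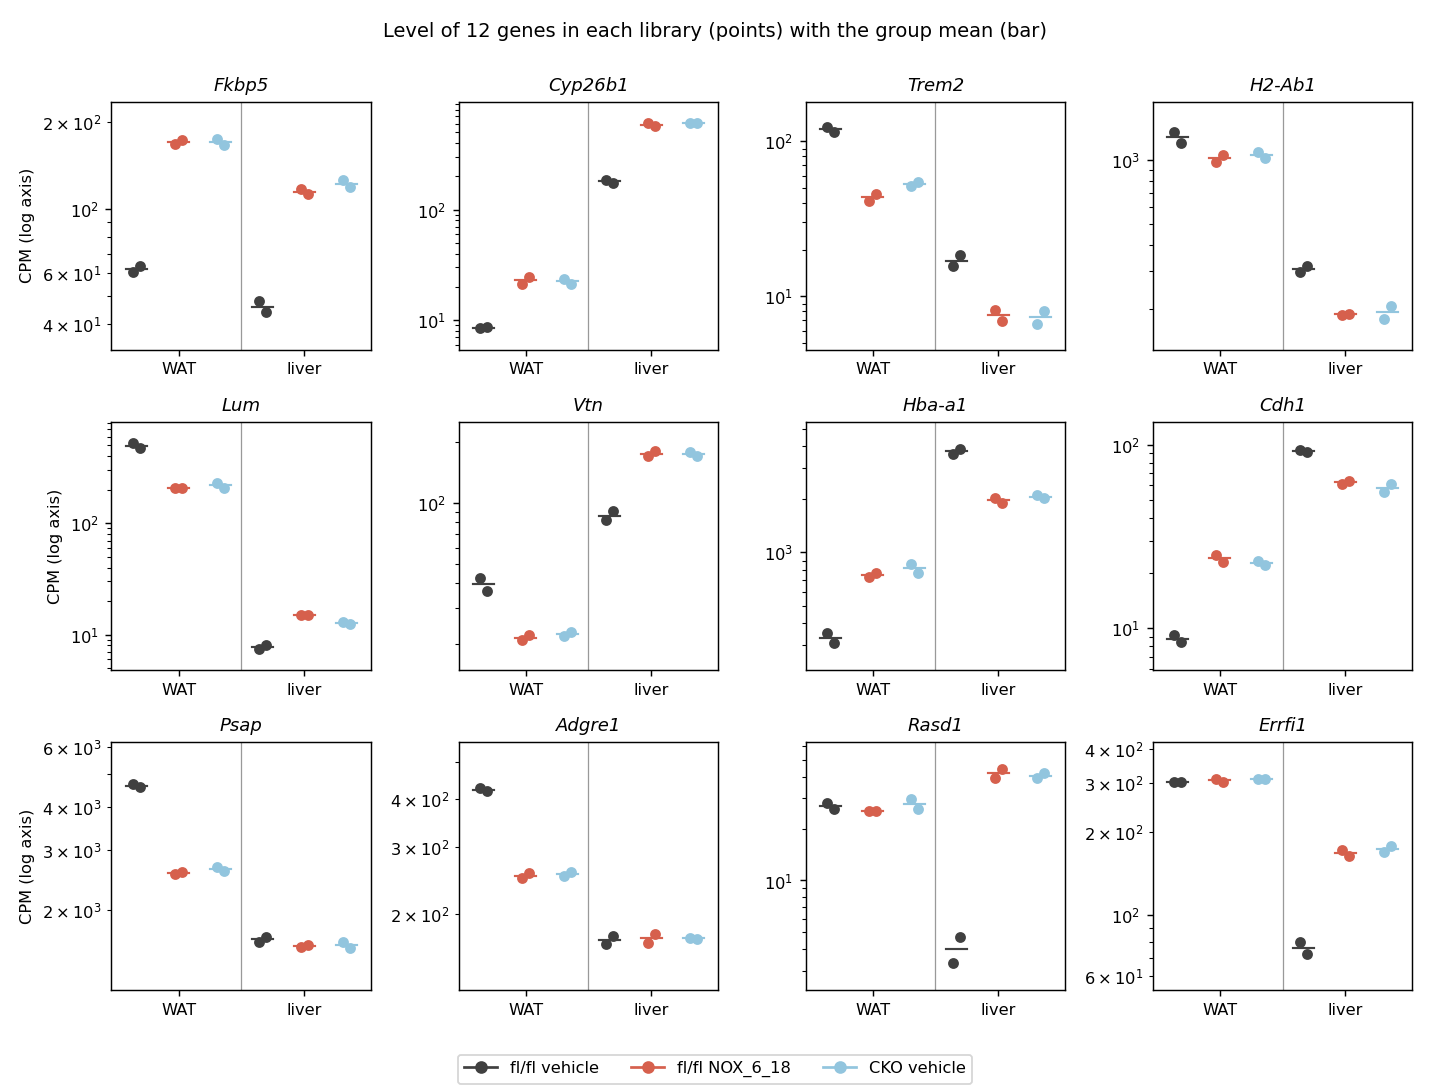
Level of 12 genes in CPM (log axis) in each library of fl/fl vehicle, fl/fl NOX_6_18 and CKO vehicle mice, WAT on the left and liver on the right of each panel; points are the 2 libraries of a group and bars their mean. Fkbp5, Cyp26b1, Trem2 and H2-Ab1 moved the same way in both tissues, Lum, Vtn, Hba-a1 and Cdh1 in opposite ways, Psap and Adgre1 in WAT and Rasd1 and Errfi1 in liver, and the CKO vehicle points lie beside the NOX_6_18 points.

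Among the opposite genes, those that fell in WAT and rose in liver included components of the extracellular matrix and secreted plasma proteins. Lum, a collagen-binding proteoglycan, was at 523 and 470 CPM on vehicle and 207 and 208 CPM on NOX_6_18 in WAT, and at 7.49 and 8.11 against 15 and 15 CPM in liver. Its responses were -1.26 ± 0.07 and 0.94 ± 0.08, a difference of -2.21 ± 0.11 (adjusted p = 2.32e-07), although limma-voom lost the liver call (adjusted p = 0.062). Vtn, the adhesive plasma protein vitronectin, went from 42.3 and 36.6 down to 20.8 and 22 CPM in WAT and from 82.1 and 91 up to 170 and 180 CPM in liver. Serpina3n, a protease inhibitor of the acute phase, went from 105 and 102 to 47.7 and 48.5 CPM in WAT and from 25 and 21.1 to 44.8 and 40.6 CPM in liver. The treated libraries of Lum, Vtn and Serpina3n lay below the vehicle libraries in WAT and above them in liver, as the choice of opposite genes favours.

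The homeobox gene Hlx, active in mesenchyme of the liver, fell from 18.9 and 16.1 to 8.11 and 9.25 CPM in WAT and rose from 44.1 and 49.3 to 96.2 and 92 CPM in liver, a difference of -2.02 ± 0.17. Gja4, a gap junction protein of arterial endothelium, fell by 0.92 ± 0.08 in WAT and rose by 0.95 ± 0.08 in liver. Hilpda, a lipid droplet protein induced by low oxygen, fell by 0.90 ± 0.16 and rose by 1.05 ± 0.18. The liver call of Hilpda was lost without liver vehicle replicate 2 (adjusted p = 0.0529). Apold1, an early response gene of endothelium, went from 256 and 248 to 146 and 147 CPM in WAT and from 20 and 18.7 to 49.8 and 54.2 CPM in liver. Lrg1, a secreted glycoprotein of the acute phase and of vessels, went from 81.9 and 70.6 to 47 and 47 CPM in WAT and from 26.9 and 24.3 to 85.5 and 76.7 CPM in liver. Nnmt, which methylates nicotinamide, had responses of -0.66 ± 0.17 in WAT, lost without WAT NOX_6_18 replicate 2 (adjusted p = 0.113), and 1.46 ± 0.18 in liver.

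Gpx3, the secreted glutathione peroxidase, was an exception to the position of the CKO libraries. It went from 402 and 328 CPM on vehicle to 146 and 153 CPM on NOX_6_18 in fl/fl WAT, while the vehicle libraries of CKO WAT lay at 380 and 382 CPM, beside the fl/fl vehicle libraries. In liver it went from 14.5 and 15.7 to 23.5 and 25.9 CPM, and the CKO vehicle libraries lay at 25.7 and 21.8 CPM. The difference of the responses was -2.0 ± 0.14 (adjusted p = 3.48e-06), and limma-voom lost the liver call (adjusted p = 0.181).

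The list of fibroblast and matrix genes showed the same contrast. Of its 24 genes, 23 fell and none rose in WAT, while 7 rose and 1 fell in liver, and the difference was called for 20, all with the lower response in WAT. The median log2 fold changes were -0.75 and 0.21. Col6a2, a chain of collagen VI, went from 1140 and 1230 to 709 and 718 CPM in WAT and from 26.9 and 25.6 to 36.8 and 34.7 CPM in liver, where limma-voom lost the call (adjusted p = 0.268). Col3a1 fell from 6450 and 6900 to 3050 and 3060 CPM in WAT and stayed between 118 and 127 CPM in the 4 liver libraries. Sparc, a matrix protein that binds collagen, fell from 2950 and 2810 to 1660 and 1600 CPM in WAT and had a liver response of -0.01 ± 0.04. The rises in liver were less stable: 2 to 4 of the 7 passed without either liver vehicle replicate or without liver NOX_6_18 replicate 1, 2 passed in a fit of only the fl/fl libraries, and 0 passed with limma-voom.

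Genes that rose in WAT and fell in liver included those of red blood cells. The alpha globin gene Hba-a1 was at 349 and 310 CPM on vehicle and 725 and 769 CPM on NOX_6_18 in WAT, and at 3610 and 3820 against 2030 and 1910 CPM in liver. Its responses were 1.18 ± 0.07 and -0.92 ± 0.07, a difference of 2.10 ± 0.10 (adjusted p = 2.08e-07). The beta globin genes Hbb-bt and Hbb-bs rose by 1.17 and 1.05 in WAT and fell by 0.91 and 0.90 in liver. Globin copies are nearly identical in sequence, so the split of reads between them is uncertain. Alas2, the first enzyme of heme synthesis in red cells, rose by 1.32 ± 0.06 and fell by 0.66 ± 0.06. Of 10 erythroid genes tested, 8 rose in WAT, 5 fell in liver and 5 were opposite. Summed over the 10, their level was 984 to 1130 CPM in vehicle WAT, 2320 to 2330 CPM in treated WAT, 11100 to 11600 CPM in vehicle liver and 5900 to 6310 CPM in treated liver. The part of blood left in the samples in this result was not tested.

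Of 11 genes of epithelium and epididymis tested, 11 rose in WAT, and 4 of them fell in liver and were opposite. The other 7 had no call in liver, and 6 of the 11 had no count in at least 1 fl/fl group. Cdh1, which encodes E-cadherin, went from 9.15 and 8.4 up to 25.1 and 23 CPM in WAT and from 93.8 and 91.7 down to 61.4 and 63.3 CPM in liver, a difference of 2.03 ± 0.11 (adjusted p = 4.76e-07). Krt8, a keratin of simple epithelia, rose by 0.98 ± 0.09 in WAT and fell by 0.55 ± 0.09 in liver. Of 9 cholangiocyte markers, which label bile duct epithelium, 8 rose in WAT and 6 fell in liver, and 5 were opposite. Only 2 or 3 of the 6 falls in liver passed when any 1 fl/fl liver library or a treated WAT library was left out. Among the other opposite genes, Cenpf, a kinetochore protein, rose by 1.30 ± 0.19 and fell by 1.13 ± 0.20. Ahdc1, a DNA-binding protein, rose by 1.13 ± 0.22 and fell by 1.55 ± 0.23. Tnfrsf19, a receptor of the tumour necrosis factor family, rose by 1.53 ± 0.20 and fell by 0.95 ± 0.20. The liver call of Tnfrsf19 was lost without either liver vehicle replicate or liver NOX_6_18 replicate 2 and in a fit of only the fl/fl libraries (adjusted p = 0.0639 to 0.126), and that of Cenpf without liver NOX_6_18 replicate 1 (adjusted p = 0.0539).

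Some genes of fatty acid and triglyceride synthesis rose in WAT and fell in liver, 4 of the 22 tested. Of the 22, 11 rose and none fell in WAT, 2 rose and 5 fell in liver, and the difference was called for 7, all with the higher response in WAT. Scd1, which desaturates stearate, was at 137 and 144 CPM on vehicle and 183 and 178 CPM on NOX_6_18 in WAT, and at 242 and 260 against 122 and 122 CPM in liver. Its responses were 0.36 ± 0.06 and -1.04 ± 0.06. Fasn, the fatty acid synthase, went from 59.6 and 66.5 to 95.1 and 90.7 CPM in WAT and from 90.8 and 93.1 to 60.8 and 55.4 CPM in liver. Fads2, the desaturase that begins the making of polyunsaturated fatty acids, rose by 0.83 ± 0.07 and fell by 0.42 ± 0.07. The liver falls of the list numbered 3 in place of 5 without liver vehicle replicate 2 or liver NOX_6_18 replicate 1.

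Heat shock chaperones, which refold damaged proteins and are induced by heat shock factor through repeated GAA units in promoters, responded unequally in the tissues. Of 18 tested, 12 rose in liver and 7 in WAT, 4 were alike, and the near-identical inducible Hsp70 genes Hspa1a and Hspa1b moved in opposite directions. The promoters of 3 members that hold a perfect heat shock element are shown with that of Hspa1b, which holds none of this exact form. Each sequence covers 250 bases before to 50 after the transcript start in RefSeq on GRCm38.p6, 5′ to 3′ on the strand of the gene, with the element in capitals.
Chordc1, chr9:18292017-18292316, plus strand: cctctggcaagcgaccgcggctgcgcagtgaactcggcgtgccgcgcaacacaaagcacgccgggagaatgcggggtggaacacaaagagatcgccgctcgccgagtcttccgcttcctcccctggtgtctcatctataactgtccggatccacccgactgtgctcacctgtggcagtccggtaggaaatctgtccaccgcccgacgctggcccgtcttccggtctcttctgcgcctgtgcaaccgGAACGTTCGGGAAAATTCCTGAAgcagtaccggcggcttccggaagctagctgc
Hsph1, chr5:149636266-149636565, minus strand: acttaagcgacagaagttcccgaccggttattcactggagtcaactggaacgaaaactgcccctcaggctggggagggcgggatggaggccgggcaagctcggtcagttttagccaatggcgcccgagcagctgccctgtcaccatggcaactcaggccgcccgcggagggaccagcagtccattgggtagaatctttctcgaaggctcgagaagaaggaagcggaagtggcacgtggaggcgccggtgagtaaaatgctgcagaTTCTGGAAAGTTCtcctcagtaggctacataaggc
Hspe1, chr1:55087898-55088197, plus strand: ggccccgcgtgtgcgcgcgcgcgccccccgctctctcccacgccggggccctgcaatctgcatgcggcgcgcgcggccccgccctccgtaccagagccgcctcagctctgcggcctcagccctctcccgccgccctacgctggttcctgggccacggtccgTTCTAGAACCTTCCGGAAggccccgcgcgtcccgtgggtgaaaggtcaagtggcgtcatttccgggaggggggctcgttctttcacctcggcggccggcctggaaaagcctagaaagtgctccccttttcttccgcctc
Hspa1b, chr17:34959189-34959488, minus strand: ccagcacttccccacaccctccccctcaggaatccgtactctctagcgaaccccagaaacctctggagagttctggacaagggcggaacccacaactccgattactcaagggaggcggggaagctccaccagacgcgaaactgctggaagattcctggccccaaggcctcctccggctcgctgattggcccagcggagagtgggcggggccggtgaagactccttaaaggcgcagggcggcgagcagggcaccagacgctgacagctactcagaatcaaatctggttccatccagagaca
The element searched was GAANNTTCNNGAA or its reverse complement TTCNNGAANNTTC. The letters were found in 198 of the 32851 RefSeq promoters (0.603%) and in the promoters of 4 of the 14 chaperone genes of the list that have an entry, Chordc1, Hsph1, Hspd1 and Hspe1. Hspd1 and Hspe1 are divergent neighbours whose windows overlap, so both hold the same element. A match describes the letters in this window and does not show binding, and 1 mismatch is enough to miss an element.

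The 4 genes with the element had the higher response in liver, but they were among 9 of the 18 chaperones with a called lower response in WAT. A link between the element and the response was not tested. Hsph1, a co-chaperone of Hsp70, was at 49.9 and 50.9 CPM on vehicle and 66.7 and 68.4 CPM on NOX_6_18 in WAT, and at 55.3 and 52.4 against 130 and 121 CPM in liver. It rose by 0.42 ± 0.06 and 1.22 ± 0.06, a difference of -0.80 ± 0.09 (adjusted p = 8.05e-05). Chordc1, a partner of Hsp90, was at 35.9 and 32.8 against 39 and 38.3 CPM in WAT and at 36.6 and 43.3 against 71.8 and 71.3 CPM in liver, a difference of -0.67. Hspd1 and Hspe1, the mitochondrial chaperonin and its partner, had log2 fold changes of -0.10 and -0.20 in WAT and 0.65 and 0.48 in liver. The difference was called for both, at -0.74 for Hspd1 and -0.67 for Hspe1, and that of Hspe1 was lost in 9 of its 19 alternative settings (adjusted p = 0.0568 to 0.12). Their exons overlap each other, which makes their counts uncertain. Chordc1, Hspd1 and Hspe1 were named for their promoters after their values were seen. Hsp90ab1, the constitutive Hsp90, stayed between 832 and 875 CPM in WAT and went from 736 and 746 to 1010 and 1060 CPM in liver.

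Hspa1b was at 100 and 108 CPM on vehicle and 192 and 199 CPM on NOX_6_18 in WAT, and at 417 and 397 against 229 and 218 CPM in liver. Its responses of 0.91 ± 0.07 and -0.87 ± 0.07 differed by 1.78 ± 0.09 (adjusted p = 3.69e-07). Hspa1a rose by 0.63 ± 0.06 in WAT and fell by 0.76 ± 0.06 in liver, and the near-identical sequences of both genes make the split of reads between them uncertain. Over the 18 chaperones, none fell in WAT and 2 fell in liver. The difference was called for 12, of which 9 had the lower and 3 the higher response in WAT, and the medians were 0.16 in WAT and 0.63 in liver. Hspa5, the chaperone BiP of the endoplasmic reticulum, lay between 757 and 804 CPM in WAT and rose from 232 and 228 to 362 and 363 CPM in liver.

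Fkbp5 and Zbtb16 were exceptions within their own list. Of 14 glucocorticoid-induced genes and metallothioneins, 11 rose and none fell in liver, whereas 3 rose and 3 fell in WAT, and 2 were alike. The difference was called for 10, and 9 of these had the lower response in WAT. The medians were 0.04 in WAT and 0.88 in liver. Errfi1, an inhibitor of the epidermal growth factor receptor, lay at 302 and 303 CPM on vehicle and 312 and 304 CPM on NOX_6_18 in WAT, while it rose from 79.5 and 72.2 to 172 and 163 CPM in liver. Sgk1, a kinase that regulates ion channels, fell from 368 and 343 to 243 and 245 CPM in WAT and rose from 307 and 302 to 460 and 449 CPM in liver, a difference of -1.12 ± 0.06 (adjusted p = 6.52e-07). Per1, a clock gene that glucocorticoids induce, lay at 212 to 226 CPM on vehicle and at 264 and 213 CPM on NOX_6_18 in WAT, with overlap, and rose from 55.6 and 51.1 to 125 and 121 CPM in liver. Nfkbia, the inhibitor of NF-kappaB, fell by 0.26 ± 0.05 and rose by 0.44 ± 0.05, and the WAT call was lost with library totals alone (adjusted p = 0.208). Lcn2, an iron-carrier protein of neutrophils and the acute phase, was the member with the higher response in WAT, at 1.95 ± 0.10 against 0.80 ± 0.10.

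**Figure D3:**
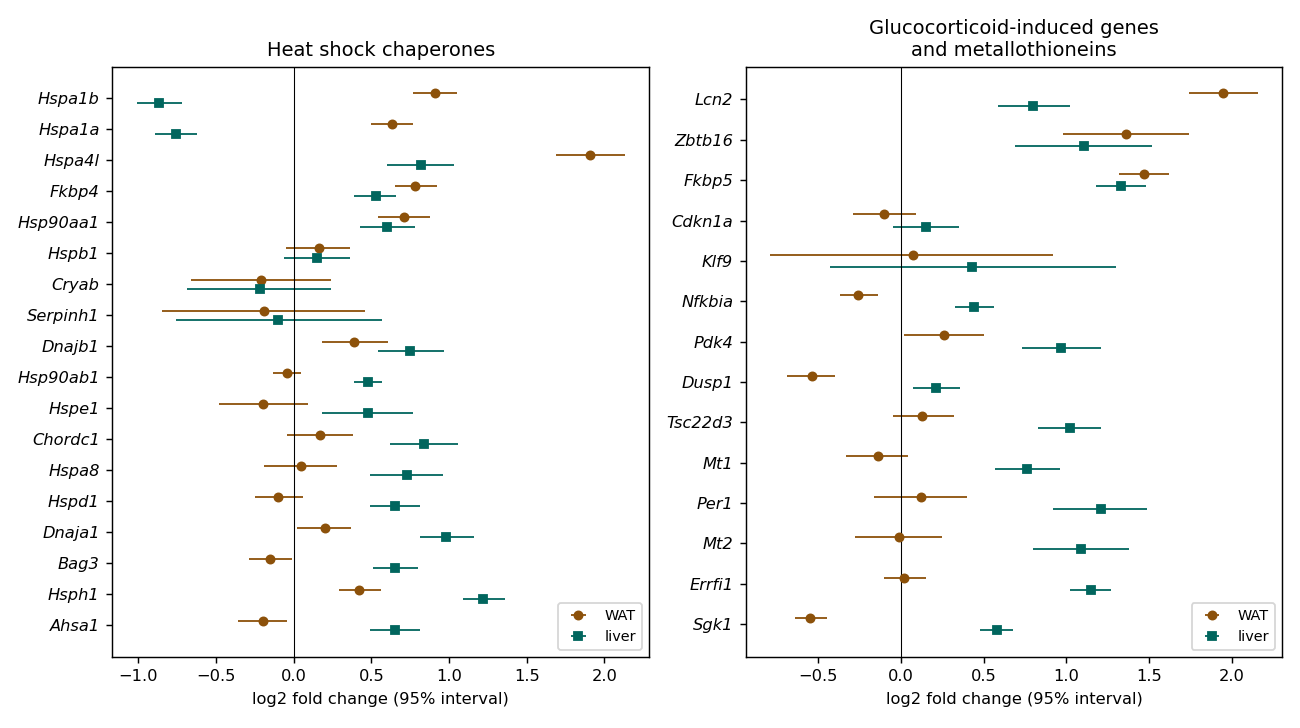
Log2 fold change of NOX_6_18 against vehicle with its 95% interval in fl/fl WAT (circles) and fl/fl liver (squares), for the 18 heat shock chaperones (left) and the 14 glucocorticoid-induced genes and metallothioneins (right), ordered by the difference of the responses. Most liver values lie to the right of 0 and of the WAT values, Fkbp5 and Zbtb16 lie together in both tissues, and Hspa1a and Hspa1b lie on opposite sides of 0.

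Rasd1, a small G protein first found as induced by dexamethasone, had the most negative difference among the named genes with a mean of at least 5 CPM in each tissue. It lay at 28.1 and 25.9 CPM on vehicle and 25.3 and 25.3 CPM on NOX_6_18 in WAT, and at 3.3 and 4.69 CPM against 39.4 and 44.3 CPM in liver. That mean covers vehicle and treated libraries, so Rasd1 reached it in liver only through the treated libraries. The filter thus helped to place it here. The responses were -0.09 ± 0.13 and 3.40 ± 0.15, and the difference was -3.49 ± 0.19 (adjusted p = 5.39e-07). The vehicle libraries of CKO liver lay at 39.1 and 42.2 CPM, beside the treated fl/fl libraries. C4a, a complement gene with a close copy, had log2 fold changes of -0.30 ± 0.30 in WAT and 1.72 ± 0.33 in liver, a difference of -2.01 ± 0.45 (adjusted p = 0.00971).

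More macrophage genes fell in WAT than in liver. Of 20 macrophage markers, 4 rose and 13 fell in WAT, 3 rose and 3 fell in liver, and the difference was called for 14, of which 13 had the lower response in WAT. With library totals alone, 9 had a called lower response in WAT and 2 a called higher one. Adgre1 fell from 428 and 421 to 249 and 256 CPM in WAT and lay between 167 and 178 CPM in all 4 liver libraries, a difference of -0.76 ± 0.07 (adjusted p = 2.24e-05). Cd68 fell by 0.87 ± 0.06 in WAT and had a liver response of -0.08 ± 0.06. Cx3cr1, the fractalkine receptor of monocytes, ran the other way: it rose from 7.84 and 9.23 to 14.4 and 14.9 CPM in WAT and fell from 28 and 28.4 to 13.6 and 10.3 CPM in liver. Mrc1, the mannose receptor, which macrophages and sinusoidal endothelium share, rose from 1480 and 1470 to 1870 and 1840 CPM in liver. Its WAT response of -0.20 ± 0.04 was lost with library totals alone (adjusted p = 0.491) and over only the genes of at least 1 CPM in each tissue (adjusted p = 0.0759). Summed over the 20 markers the level was 9220 to 9710 CPM in vehicle and 6710 to 6760 CPM in treated WAT, against 4580 to 4630 and 4950 to 5020 CPM in liver.

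Genes of lipid-associated macrophages, a state first described in obese adipose tissue, showed larger falls in WAT. Of 18 tested, 17 fell and none rose in WAT, with a median of -1.15, while 3 rose and 7 fell in liver, with a median of 0.01. Trem2 is a member of this list and was alike, but the difference was called for 15 members, 13 of them with the lower response in WAT. Lipa, the lysosomal lipase that digests cholesteryl esters, fell from 422 and 428 to 185 and 185 CPM in WAT and lay between 169 and 176 CPM in liver. Fabp5, a fatty acid carrier, fell from 149 and 138 to 61.8 and 62.8 CPM in WAT and rose from 54.9 and 52.5 to 75.2 and 71.8 CPM in liver. Ctsb, the protease cathepsin B, fell from 3790 and 3650 to 1940 and 1960 CPM in WAT. In liver Ctsb rose by 0.21 ± 0.03, a call that a fit of only the fl/fl libraries lost (adjusted p = 0.0609). Cd36, the fatty acid and oxidised lipoprotein receptor, fell by 0.84 ± 0.04 in WAT and had a liver response of 0.09 ± 0.04. Lpl, the lipoprotein lipase, fell in both tissues, from 1690 and 1700 to 662 and 590 CPM in WAT and from 174 and 181 to 104 and 114 CPM in liver, a difference of -0.74 ± 0.09 within the 2-fold bound.

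Of 22 lysosomal hydrolase and proton pump genes, 21 fell in WAT and none was called in liver, and the difference was called for 17. The medians were -0.53 and 0.08. Psap, the precursor of the saposins that activate lipid-degrading enzymes, went from 4670 and 4590 to 2540 and 2580 CPM in WAT and lay between 1550 and 1660 CPM in liver. Atp6v1b2 and Atp6v1a, subunits of the proton pump, fell by 1.06 and 0.71 in WAT and had liver responses of 0.16 and 0.08. Lamp2, a protein of the lysosomal membrane, fell by 0.47 ± 0.05 in WAT against a liver response of 0.17 ± 0.05 (adjusted p = 0.0529). Of 14 genes of the liver X receptor and cholesterol efflux, 8 had a called difference, all with the lower response in WAT. Among them Nr1h3, the receptor itself, fell by 0.79 and Soat1, which esterifies cholesterol, by 0.85 in WAT, against 0.19 and 0.09 in liver, which missed the threshold. Mylip, which marks the LDL receptor for degradation, lay between 82.6 and 89.4 CPM in WAT and rose from 279 and 288 to 442 and 458 CPM in liver.

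Endothelial markers fell in WAT as well. Of 15, 13 fell and none was called in liver, and the difference was called for 12, or for 6 with library totals alone. Pecam1 (CD31) went from 359 and 348 to 247 and 248 CPM in WAT and lay between 611 and 637 CPM in liver. Cdh5, Tie1 and Egfl7, a cadherin, a receptor and a secreted factor of vessels, fell by 0.55, 0.47 and 0.85 in WAT and had liver responses of -0.02, 0.08 and 0.08. Of 20 immediate early genes, which answer stimulation within minutes, 13 fell in WAT and 4 rose and 4 fell in liver. Dusp1, a phosphatase of MAP kinases, fell from 1930 and 1830 to 1270 and 1310 CPM in WAT with a liver response of 0.21 ± 0.07 (adjusted p = 0.105). Klf2, a transcription factor of endothelium and quiescent leukocytes, fell by 0.50 ± 0.08 in WAT and rose by 0.85 ± 0.08 in liver. Falls in WAT were not limited to such lists. Of 28 cytoplasmic ribosomal protein genes, 21 fell in WAT, where 10.9% of all genes tested fell, and none was called in liver. The difference was called for 8 of the 28. This is close to the share over the genes measured in both tissues, as these 28 were (3102 of 13856). Of 26 nuclear-encoded oxidative phosphorylation genes, 7 fell in WAT, and 1 rose in liver.

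**Figure D4:**
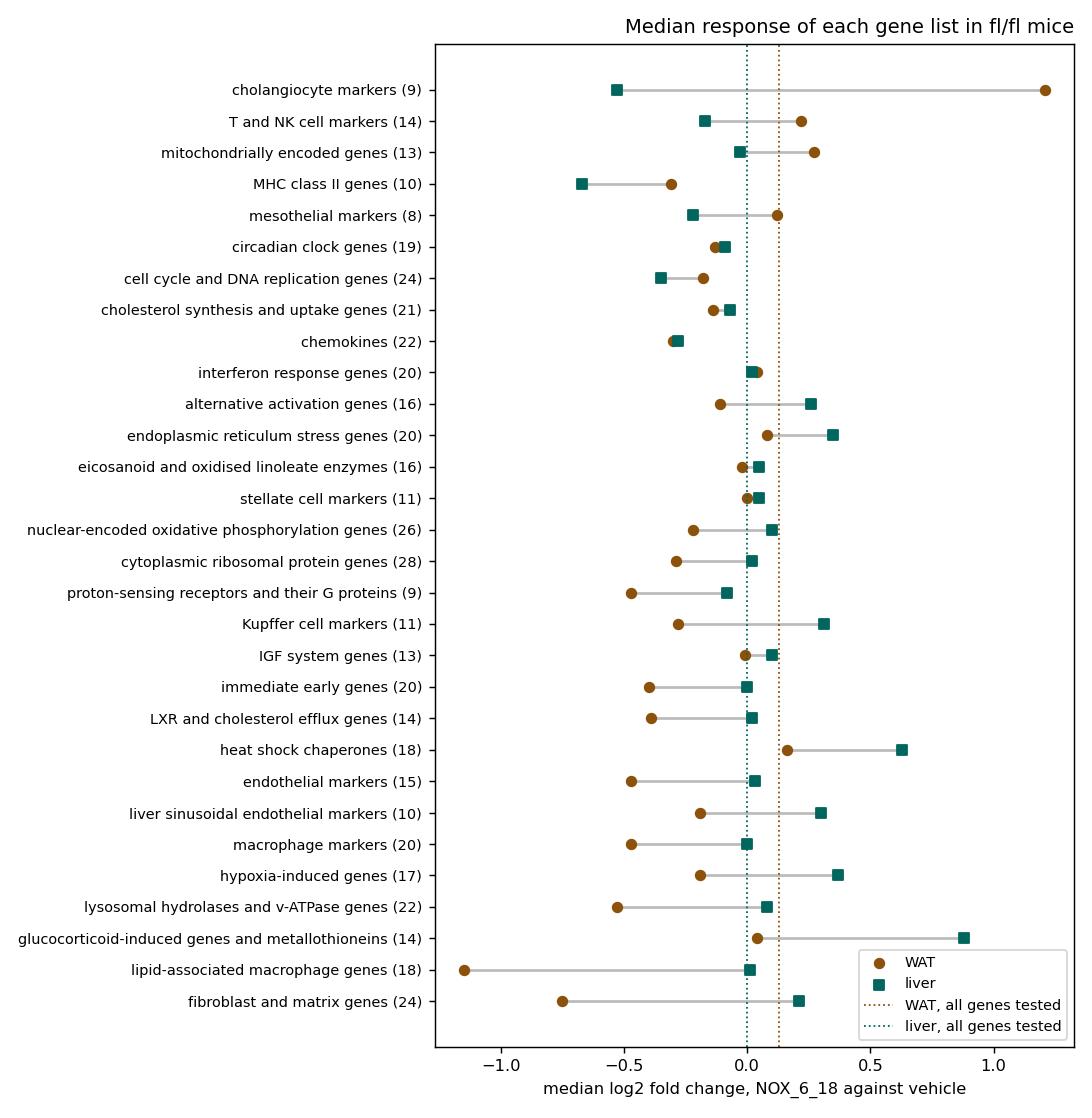
Median log2 fold change of NOX_6_18 against vehicle in fl/fl WAT (circles) and fl/fl liver (squares) for the 30 gene lists in which no member lacked counts in a whole group; the number of genes tested is in parentheses and dotted lines mark the medians of all genes tested (0.13 and 0.00). Over the genes measured in both tissues the medians were -0.1 in WAT and 0.0 in liver. Lists are ordered by their median difference, from fibroblast and matrix genes at the bottom to cholangiocyte markers at the top.

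Liver, in turn, showed larger rises of genes of neutrophils, of low oxygen and of Kupffer cells. Of 16 neutrophil markers, 14 rose in liver and 9 in WAT, and the difference was called for 8, of which 6 had the lower response in WAT. Only 8 of the 16 had a mean of at least 1 CPM in both tissues, and 2 had no count in at least 1 fl/fl group. Members low on vehicle could pass the filter through the groups where they are high. Over only the genes of at least 1 CPM in each tissue, 8 rose in liver and 6 in WAT. There 4 had a called lower and 2 a called higher response in WAT. Ngp, a granule protein of immature neutrophils, was at 0.197 and 0.253 CPM on vehicle and 20.1 and 22.7 CPM on NOX_6_18 in liver, and at 0.185 and 0.109 against 0.842 and 1.13 CPM in WAT. S100a9, a calcium-binding alarm protein of neutrophils, went from 2 and 1.39 to 47.5 and 46.4 CPM in liver and from 0.493 and 0.967 to 1.9 and 2.7 CPM in WAT. Il1r2, the decoy receptor of interleukin 1, rose by 3.88 ± 0.33 in liver and had a WAT response of 0.40 ± 0.26 (adjusted p = 0.282). Summed over the 16 markers the level was 60.6 to 62.1 CPM on vehicle and 231 to 232 CPM on NOX_6_18 in liver, and 61.4 to 67.9 against 147 to 154 CPM in WAT.

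Of 17 hypoxia-induced genes, 7 rose and 1 fell in liver, 1 rose and 5 fell in WAT, and the difference was called for 10, of which 9 had the lower response in WAT. Adm, the vessel-dilating peptide adrenomedullin, was at 25.9 and 22.8 against 19.6 and 19.7 CPM in WAT and rose from 9.69 and 11.2 to 29.4 and 26.1 CPM in liver. Bnip3, which drives removal of mitochondria, and P4ha1, which hydroxylates collagen, rose by 0.89 and 0.79 in liver against WAT responses of 0.05 and 0.02. Among the Kupffer cell markers, 3 of 11 rose in liver and 3 fell in WAT. Marco, a scavenger receptor, was at 1.97 and 2.53 against 1.84 and 1.57 CPM in WAT and rose from 45 and 43.1 to 104 and 108 CPM in liver. Vsig4, a complement receptor of resident macrophages, fell by 0.72 in WAT and had a liver response of 0.30 (adjusted p = 0.0753). C6, a terminal complement component, fell by 0.55 and rose by 0.54.

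Acute phase genes did not share 1 pattern. Of 21 tested, 10 rose and 3 fell in WAT, 12 rose and 3 fell in liver, and 5 were opposite. Hp, the hemoglobin-binding haptoglobin, rose from 133 and 134 to 361 and 354 CPM in liver and went from 31.8 and 28.3 to 24.7 and 24.8 CPM in WAT, a fall that library totals alone lost (adjusted p = 0.191). Saa3, the serum amyloid A of macrophages and adipose tissue, rose from 11.5 and 10.1 to 18.8 and 20.3 CPM in WAT and fell from 8.5 and 7.79 to 3.25 and 2.1 CPM in liver. Serpina1e, a liver protease inhibitor of the alpha-1-antitrypsin family with close copies, rose from 67.9 and 69.2 to 572 and 574 CPM in liver and was under 1 CPM in WAT. Of the cytokines, Tnf lay between 109 and 134 CPM in WAT and fell from 4.19 and 5.16 to 2.04 and 2.23 CPM in liver. Osm, a cytokine that induces acute phase genes in hepatocytes, rose from 2.81 and 2.76 to 6.5 and 5.68 CPM in liver with a WAT response of -0.25 ± 0.12 (adjusted p = 0.141). Tgfb1, a cytokine that promotes fibrosis, fell from 158 and 143 to 97.7 and 105 CPM in WAT and lay between 190 and 199 CPM in liver. The differences of Tnf and Tgfb1 missed the threshold when the trend over GC content and length was removed (adjusted p = 0.0574 and 0.0508). Got1, an aminotransferase of the malate-aspartate shuttle, rose by 0.87 ± 0.09 in liver against -0.15 ± 0.09 in WAT.

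The most positive differences among genes with a mean of at least 5 CPM in each tissue came from genes that rose many-fold in WAT. That mean covers vehicle and treated libraries, so genes such as Bhmt, Fbp1, Haspin and Elovl2 reached it in WAT only through the treated libraries, and the filter helped to place them here. Phf7, a histone reader of the male germ line, was at 6.02 and 6.59 CPM on vehicle and 117 and 129 CPM on NOX_6_18 in WAT, and at 7.47 and 9.35 against 5.5 and 4.61 CPM in liver. The difference was 5.01 ± 0.18 (adjusted p = 3.2e-08). The fall in liver was lost in 4 settings (adjusted p = 0.0679 to 0.189), those without liver vehicle replicate 2 and without liver NOX_6_18 replicate 2 among them. Haspin, a kinase of mitotic chromosomes that is abundant in testis, went from 2.71 and 1.8 to 50.8 and 54.2 CPM in WAT and was at 6.33 and 4.88 against 5.67 and 6.84 CPM in liver. Hspa2, an Hsp70 of spermatocytes, went from 21.6 and 21.4 to 132 and 128 CPM in WAT and had a liver response of -0.46 ± 0.13 (adjusted p = 0.0752). Mroh7, Pde1c, Adgb, Asrgl1, Hook1 and Reep6 rose by 5.02, 3.99, 3.63, 2.96, 2.93 and 3.51 in WAT, with liver responses between -0.25 and 0.25 that missed the threshold. Elovl2, which lengthens polyunsaturated fatty acids, rose from 1.62 and 2.14 to 25.9 and 26.9 CPM in WAT and lay between 22.7 and 24.6 CPM in liver.

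Genes of metabolism stood beside them. Fbp1, an enzyme of gluconeogenesis, was at 1.96 and 1.5 CPM on vehicle and 40.6 and 38.9 CPM on NOX_6_18 in WAT, and rose from 47.5 and 50.4 to 66.5 and 72.5 CPM in liver, a difference of 4.02 ± 0.16. Bhmt, which remethylates homocysteine, was at 0.077 and 0.0681 CPM on vehicle and 10.5 and 10.9 CPM on NOX_6_18 in WAT, and rose from 103 and 108 to 175 and 176 CPM in liver. Its vehicle level in WAT was near the floor, so the size of its difference of 6.43 ± 0.13 is uncertain. Alb rose from 3.74 and 3.42 to 19.5 and 23.1 CPM in WAT and had a liver response of -0.16 ± 0.07 (adjusted p = 0.289). Exons of Bhmt and Hook1 overlap those of a neighbouring gene, as do those of Cd22, Ciita, Krt8, Alas2, Hspa1a, Cx3cr1, Ctsb, Col3a1, Egfl7, Bnip3, Dusp1, Nr1h3, Gna12, Gna13, Gnas and Insl3, so their counts are uncertain. Of 21 hepatocyte markers tested, 17 rose in WAT and 10 rose and 1 fell in liver, and their summed level in WAT was 26.5 to 28.1 CPM on vehicle and 65.3 to 72.5 CPM on NOX_6_18. Over all genes tested, 20.5% rose in WAT. Only 10 of the 21 had a mean of at least 1 CPM in both tissues, and 1 had no count in at least 1 fl/fl group. Members low in WAT could pass the filter through liver.

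Markers of the testis moved with these genes in WAT. All 18 germ cell genes tested rose in WAT, and the difference of the responses was called for 5 of them. The summed level of the 18 was 21.3 to 23.7 CPM on vehicle and 903 to 940 CPM on NOX_6_18 in WAT. In the 4 fl/fl liver libraries it was 0.57 to 1.62 CPM. The filter keeps a gene with enough counts in any group, so members low on vehicle could enter through the groups where they are high. Ddx4, an RNA helicase of germ cells, was at 0.862 and 0.736 CPM on vehicle and 52.7 and 52.6 CPM on NOX_6_18 in WAT and under 1 CPM in liver. Its difference of 6.74 became 0.33 without liver vehicle replicate 1, so its size is uncertain. Of 8 genes of the steroid-making Leydig cells, 7 rose in WAT, and the difference was called for 3. Insl3, a hormone of these cells, went from 1.4 and 0.831 to 132 and 138 CPM in WAT and from 2.17 and 2.5 to 3.85 and 4.08 CPM in liver. Cyp17a1, a steroid-making enzyme, went from 0.832 and 0.913 to 17.8 and 19.4 CPM in WAT and lay between 0.942 and 1.55 CPM in liver. The vehicle libraries of CKO WAT held 950 and 989 CPM of the germ cell genes, beside the treated fl/fl libraries. Of the 18, 13 had no count in at least 1 of the 4 fl/fl groups. The vehicle and treated groups of WAT thus also differed in the level of testis genes, and its part in the WAT responses above was not tested.

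The same contrast in the CKO libraries, a comparison added after the counts had been seen, called 0 of the 26751 genes (0.0%) with edgeR, the only tool run on it, with 1345 at an unadjusted p under 0.05, against 7041 in fl/fl. The difference between the fl/fl and the CKO contrast was itself called for 1788 genes (6.68%), and 1702 of these were among the 3936 called in fl/fl. Both sets of calls use the same fl/fl contrast and libraries, so this overlap was largely set in advance and adds no support. For Gpr132, the target of the floxed alleles, the vehicle libraries of CKO WAT lay at 24.8 and 44.9 CPM and those of CKO liver at 2.7 and 2.12 CPM.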

How the data were processed

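The deposited tables hold raw read counts per Ensembl gene, 1 table per library, which the authors made with the tools that the submitters' processing notes name without roles: HISAT, featureCounts 1.5.0 and DESeq 1.8.3, with the build GRCm38. The labels and notes name no strand setting or annotation release. Per the labels' protocols, tissue was frozen in liquid nitrogen and total RNA was prepared with a KAPA stranded kit. Of 55421 gene IDs, 55240 (99.7%) were matched to GENCODE M21 symbols.

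All 16 libraries were fitted together in edgeR 4.0.16 (R 4.3.3) with TMM scaling, filterByExpr by group and 1 coefficient per group. The quasi-likelihood test was used with Benjamini-Hochberg adjustment over the 26751 genes tested, and a call needs an adjusted p under 0.05. The script was tested on simulated data. Alternatives used DESeq2 1.42.0, limma-voom (limma 3.58.1), other scalings and filters, a replicate block, fits of fewer libraries and each fl/fl library left out.

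Named genes were Gpr132 and, at a mean of at least 5 CPM in each tissue, the 12 largest called differences each way in which the replicates of both treatments separated in at least 1 tissue, the 8 alike genes each way and the 6 opposite genes of each kind with the largest smaller response. To these were added the 3 most abundant genes measured in 1 tissue alone for each tissue, and up to 4 called members of each of 48 lists, or 2 where none was called. Predicted genes, pseudogenes, antigen receptor segments, Xist and Y-linked genes were left out, and the text prints part of the rest. The comparison and the lists were chosen with earlier results of these data known.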

Additional observations from a re-analysis of the deposited data

Results flagged for a closer look

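The response differed between the tissues for 3936 genes by the test of the difference itself, and 306 genes had called responses of opposite sign. Among the opposite genes named, the log2 difference of the responses was negative for Lum (-2.21), Hlx (-2.02), Serpina3n (-2.0), Hilpda (-1.95), Vtn (-1.90) and Gja4 (-1.87). It was positive for Ahdc1 (2.69), Tnfrsf19 (2.48), Cenpf (2.43), Hba-a1 (2.10), Hbb-bt (2.08) and Hbb-bs (1.95). Each of these 12 differences passed edgeR's quasi-likelihood test. Groups of 2 libraries are too small for a test of single outlying libraries.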

How the results depend on the processing

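With library totals alone, 975 of the called differences had the lower response in WAT (71.9% had the higher one, against 51.1%), and the median of all genes shifted by 0.154 in WAT. After removal of the trend over GC content and length that number was 2993, and the WAT median shifted by -0.106. Over only the genes of at least 1 CPM in each tissue, 4338 genes were called in WAT. DESeq2 called 2357 genes in liver and 6054 differences, 3440 with the higher response in WAT, with 585 opposite genes and 716 differences called in liver only. Limma-voom called 6518 differences, 4283 higher in WAT (65.7%), with 5445 called in WAT only. In a fit of only the 8 fl/fl libraries there were 776 genes in liver, 158 alike, 166 opposite and 254 called in liver only. An absolute log2 difference of at least 1 kept 1940 of the differences. The alike genes numbered 160 within 1.5-fold and 410 with no condition on the difference.

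Leaving out each fl/fl library gave 2716 to 3846 differences, 750 to 1415 liver calls, 152 to 239 alike genes, 168 to 303 opposite genes and 253 to 400 differences called in liver only. Liver calls and alike genes fell furthest without a liver library (750 to 856 and 152 to 169), and opposite genes also without a treated WAT library (188 and 194). The small differences of 3 alike genes changed sign: Klf15 was 0.01 with library totals, Cyp26b1 was 0.06 and Ms4a7 -0.01 after removal of that trend, and Ms4a7 ran from -0.06 to 0.18 when a library was left out, lowest without liver vehicle replicate 1. Of 2220 recomputed differences of 117 genes, 2165 kept their direction and call, as did 2128 of 2160 recomputed values of 108 responses in 1 tissue. The cause of these changes was not tested.

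With the replicate number as a block within tissue, 3661 differences were called, with 248 alike and 268 opposite genes. Deviations of same-numbered libraries correlated at 0.0483 between the WAT groups and -0.0503 between the liver groups over 12264 genes. Between WAT and liver they correlated at -0.0471 on vehicle and -0.0746 on NOX_6_18. With 2 libraries a group, these values cannot show whether same-numbered libraries share an animal. The separate fit of each tissue gives no difference of the responses, and Ngp, Ddx4 and Serpina1e are under 1 CPM in a tissue and have no value over the restricted genes. The CKO contrasts were computed in 1 setting.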
